A study of Mus musculus with 14 samples.

Results

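Wild-type primitive erythroid precursors were the 8 arrays labelled wildtype among the 14 arrays of a mouse study of the erythroid transcription factor KLF1 and its relative KLF2. The arrays were selected by that genotype label, and they carry the title numbers 1 to 4 and 9 to 12, by which they are named here. No mutant array entered any value. The embryos were of the FVB/N strain at embryonic day 9.5 (E9.5), the label gives no mutant allele or agent, and the protocol is that of the whole series. The design text names heterozygous KLF1+/- and KLF1+/- KLF2+/- dams, and the sources used here do not say whether the wild-type embryos were their offspring. Each array held RNA pooled from 2 to 4 yolk sacs of 2 litters, captured by laser from stained frozen sections 8 µm thick, so one array averages several embryos and anything the laser lifted along with the cells. Between 10 and 20 ng of total RNA was amplified in a reaction of 2 cycles primed at the poly(A) tail.

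Primitive erythroid precursors arise in the blood islands of the yolk sac, enter the circulation while still dividing, and fill with embryonic haemoglobin. Blood islands lie between a mesoderm layer of mesenchyme, mesothelium and endothelium and the visceral endoderm, an absorptive epithelium that secretes apolipoproteins, transthyretin and alpha-fetoprotein and serves the embryo as its early liver. GATA1, KLF1 and TAL1 switch on the globin, heme and red cell membrane genes in these precursors, whereas HNF4A and its partners drive the secreted proteins of the endoderm.

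Values are log2 levels of probe sets, each gene being represented by its brightest probe set among 12393 genes. A level reflects the binding strength of the probes as well as the amount of RNA, so an order of levels between genes is an order of brightness and not of transcript number. Array medians lay between 6.56 and 6.62. The interquartile range, the spread of all probe sets on an array, was not shared: it was 2.89 on array 2 and 2.31 on array 12. Pairs of arrays correlated with Pearson r from 0.954 (arrays 2 and 12) to 0.991 (arrays 10 and 11) across probe sets, and no array was a copy of another. The 3′ minus 5′ difference of the Gapdh control probe sets, a measure of RNA length, was 5.28 on array 1 and between 3.90 and 4.71 on the other 7 arrays. In the absence of detection calls, a floor was set at 7.38, the 95th percentile of the mean levels of 94 genes for chemosensory receptors and hair keratin-associated proteins, which mark sensory and hair cells.

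The embryonic beta-like globins were the brightest genes of the wild-type precursors. Hbb-bh1 had a mean of 14.49 ± 0.20 (SD, n = 8) and Hbb-y 14.42 ± 0.11, ranks 1 and 2 of 12393, and Hba-x, the embryonic alpha-like globin, 12.74 ± 0.55. Hbb-bh1 read 14.71, 14.65, 14.64 and 14.15 on arrays 1 to 4 and 14.58, 14.46, 14.46 and 14.24 on arrays 9 to 12. Hbb-y read 14.45, 14.41, 14.58 and 14.25 on arrays 1 to 4 and 14.45, 14.44, 14.50 and 14.29 on arrays 9 to 12. A probe set of one of these globins was the brightest of all on each of the 8 arrays, so both lie at the upper end of the scale, where differences are compressed. Hba-x, farther from that end, read 13.21, 13.01, 11.92, 12.53, 13.33, 13.17, 12.76 and 11.97 in the same order of arrays, lowest on arrays 3 and 12.

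The adult globin probe sets that could be used were dim. Of 11 listed globins 6 had a probe set assigned to them alone, and sets shared by several genes were not used, so the level of the adult globins as a whole is uncertain. Hba-a1 had a mean of 4.71 ± 0.11 and Hba-a2 5.78 ± 0.61, both below the floor. Hbb-b2 averaged 8.07 ± 0.98 with 9.34 on array 1 and 9.71 on array 3 against 6.83 to 8.14 on the other 6 arrays. Its other probe set stayed at 6.36 ± 0.29, and adult globin genes are near-identical copies that these probes may not separate. Regulators and surface proteins of definitive blood, the later lineage of the fetal liver, were also mostly dim: 1 of 13 exceeded the floor on all 8 arrays. Kit, the stem cell factor receptor, averaged 5.44 ± 0.25 and Bcl11a, a repressor of embryonic globins, 5.09 ± 0.20, while Myb read 7.60 ± 0.58 and Gata2 8.19 ± 0.17.

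Of all 12393 genes, 4088 (33.0%) exceeded the floor on all 8 arrays, a number that fell to 2003 with the floor at the 99th percentile of the same family (8.56). Among the 20 brightest genes, 8 encoded cytosolic ribosomal proteins, led by Rps20 (13.93) and Rps18 (13.89). The others included Uqcrb (13.82), a respiratory chain subunit, Ran (13.59), the nuclear transport GTPase, Tpt1 (13.72), Hmgn1 (13.74), a nucleosome-binding protein, and the endoderm products Ttr (13.82) and Afp (13.62). By family, 32 of 47 cytosolic ribosomal protein genes (68.1%), 37 of 80 genes of the respiratory chain and ATP synthase (46.2%) and 7 of 8 chaperonin subunits lay in the brightest 5% of genes. The mitochondrial ribosomal proteins were dimmer, with 6 of 74 in that class and a median level of 8.96 against 12.42 for the cytosolic ones. Chemokines and Zfp zinc finger genes had medians of 6.01 and 6.38, under the 6.99 of all genes, and the keratins lay beside the chemokines. In the keratins, 3 of 36 exceeded the floor on all arrays, and Krt8, an epithelial keratin, reached 11.04 ± 0.57.

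**Figure D1:**
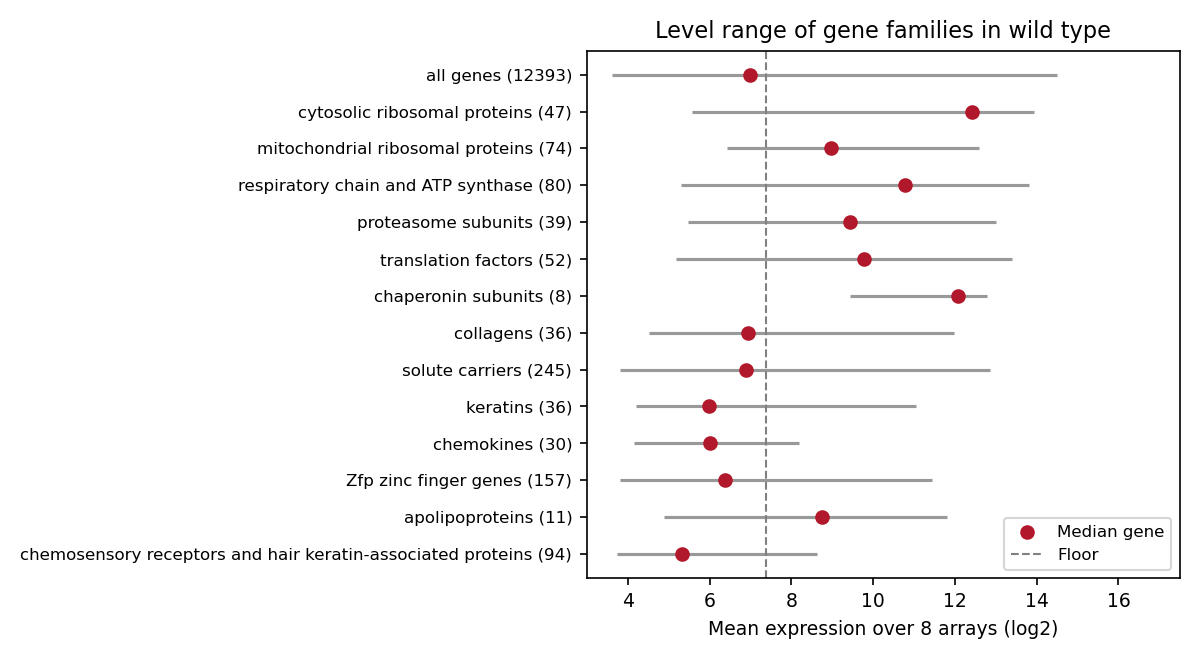
Level of gene families over the 8 wild-type arrays: the horizontal axis is the mean log2 level of a gene, each grey line runs from the dimmest to the brightest gene of a family, the red point is the median gene, and numbers of genes are in parentheses. The dashed line is the floor at 7.38; cytosolic ribosomal proteins (median 12.42) and chaperonin subunits (12.09) lie to the right, and keratins and chemokines (6.01) to the left of it.

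The markers of the labelled cell type were present on every array. Slc4a1, the band 3 anion exchanger of the red cell membrane, had a mean of 12.25 ± 0.47 (rank 198) and read 11.98, 12.07, 12.66 and 11.69 on arrays 1 to 4 and 12.94, 12.36, 12.63 and 11.69 on arrays 9 to 12. Gata1 had a mean of 10.67 ± 0.51 and read 10.14, 10.55, 10.31, 10.45, 11.73, 10.89, 10.91 and 10.34 in that order. Klf1 had the same mean, 10.67 ± 0.63, and read 10.09, 10.59, 10.05, 10.19, 11.82, 11.18, 11.07 and 10.36. For all 3 genes array 9 was the highest. The other bright probe set of Slc4a1 (10.49 ± 0.57) also peaked on array 9 (11.51), but it read 10.22 on array 3, below arrays 2 and 4, so the 2 sets disagree on array 3. Of the listed erythroid genes, 9 of 17 transcription factors, 14 of 24 red cell membrane genes, 10 of 15 heme synthesis genes and 7 of 11 genes of iron uptake and storage exceeded the floor on all 8 arrays, against 4088 of all 12393 genes. All 11 measured genes of the red cell antioxidant list exceeded it, with Prdx2, a peroxidase abundant in red cells, at 13.15 ± 0.29.

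Genes of the neighbouring yolk sac layers were bright as well. In the visceral endoderm list, 18 of 32 genes exceeded the floor on all 8 arrays and the median level was 9.70, against 6.99 for all genes. Ttr, the thyroid hormone carrier, averaged 13.82 ± 0.24 and Afp 13.62 ± 0.25. Alb, the adult serum albumin, was below the floor at 6.52 ± 0.15. Of the mesenchyme and mesothelium list, 13 of 24 genes exceeded the floor, with Col3a1, a fibrillar collagen, at 11.98 ± 0.50, Acta2, smooth muscle actin, at 11.77 ± 0.32 and Lum, the matrix proteoglycan lumican, at 11.24 ± 0.40. Fewer cells of a type and less RNA per cell cannot be told apart in such bulk samples, and how far these genes were transcribed in the erythroid cells themselves was not tested.

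Other blood and vessel markers were mixed, and smaller shares of their lists than of all genes (33.0%) exceeded the floor on all 8 arrays. Of the megakaryocyte list, 4 of 19 genes (21.1%) exceeded the floor on all 8 arrays. They were F2r, a thrombin receptor, at 12.11 ± 0.32, Pf4, platelet factor 4, at 11.21 ± 0.37, Fermt3 at 8.98 ± 0.55 and Plek at 8.38 ± 0.35. Which cells gave the F2r signal was not tested, and its place on this list does not make it megakaryocyte RNA. Vwf (5.52 ± 0.33) and Itgb3 (5.52 ± 0.20), 2 further genes of that list, lay below the floor. Endothelial genes were split likewise, with 7 of 25 (28.0%) above the floor on all arrays. Lyve1 was at 9.76 ± 0.66 and Plvap at 8.48 ± 0.39, but Cdh5 at 6.21 ± 0.32 and Pecam1 at 4.99 ± 0.15. Csf1r, the macrophage growth factor receptor, averaged 9.02 ± 0.46, while C1qa was at 6.07 ± 0.23 and Cd68 at 5.69 ± 0.10. In the lists of lymphoid genes and of genes of neurons, muscle, pancreas, sperm and lens, 1 of 16 and 1 of 20 exceeded the floor on all arrays.

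**Figure D2:**
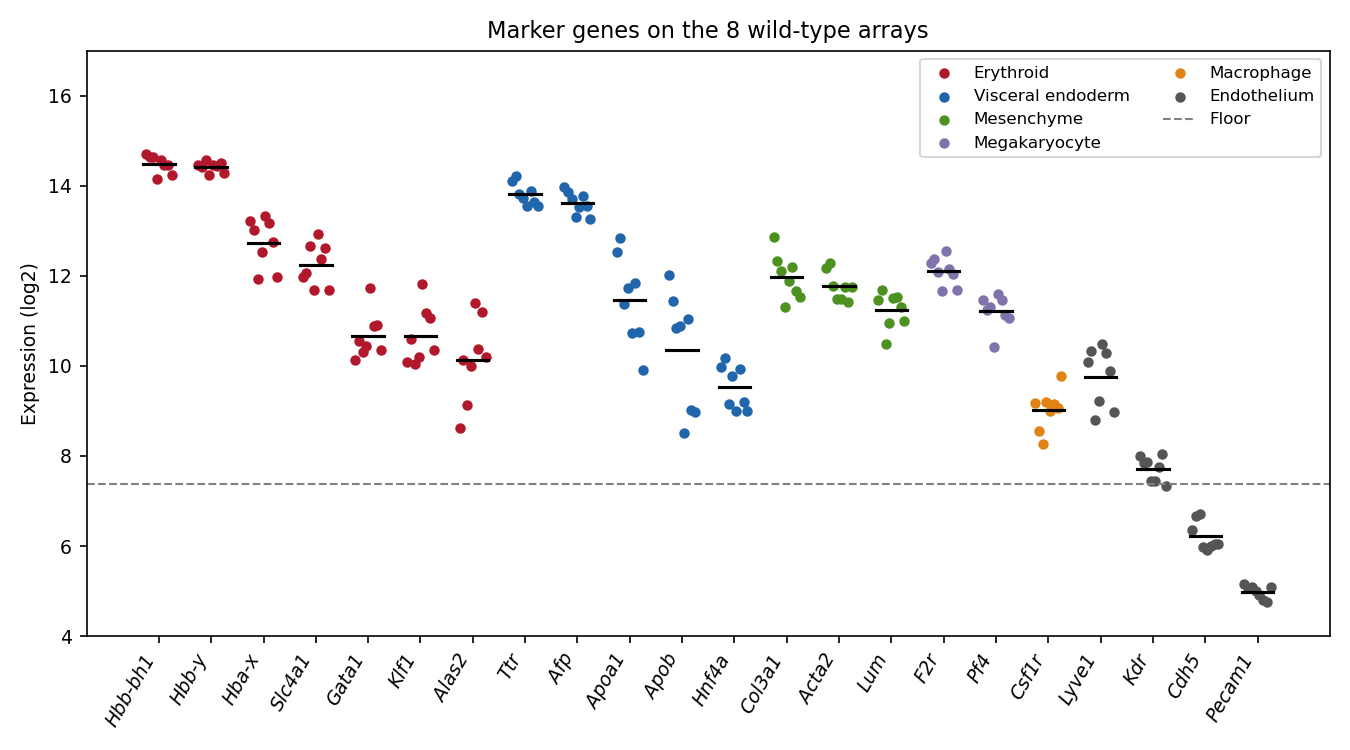
Marker genes on the 8 wild-type arrays: each point is one array, the vertical axis is the log2 level and the black bar is the mean. Colours give the cell type of the list a gene was drawn from, and the dashed line is the floor. Hbb-bh1 and Hbb-y sit near 14.49 and 14.42 with little spread, the values of Alas2, Apoa1 and Apob spread widely, and Cdh5 and Pecam1 lie below the floor.

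Many erythroid genes, most globins apart, were highest on one array. Array 9 held the highest value of 19 of 24 red cell membrane genes, 12 of 15 heme synthesis genes, 9 of 17 erythroid transcription factors and 6 of 11 genes of iron uptake and storage, whereas it held the highest value of 10.9% of all genes. The mean deviation of the list from its gene means on array 9 was 0.63 for heme synthesis, 0.59 for the membrane genes, 0.42 for the transcription factors and 0.39 for iron. The globin list did not share this order: 1 of 6 was highest on array 9 and 2 of 6 were lowest there. The gene highest there was the embryonic Hba-x (13.33). The lowest there were the adult Hba-a1 (4.47) and Hba-a2 (5.34), both with means below the floor. The list was at -0.07 on array 9 and highest on array 3 (0.44), where Hba-a2 (7.21), Hbb-b2 (9.71) and Hbb-y (14.58) were highest. Of the erythropoietin signalling genes 3 of 10 were highest on array 9, with a list deviation of 0.19. The lowest values of those lists fell on different arrays: heme synthesis on array 1 (-0.36), membrane genes on array 3 (-0.31), transcription factors on array 4 (-0.19) and iron on array 12 (-0.43). On quantile-normalized values, which give each array the same distribution, the iron list was lowest on array 4 and the transcription factor list on array 2 instead. Array 9 also held the highest value of 13 of 22 mitosis genes, such as Mki67 (11.82 against 10.15 to 11.14 on the others) and Aurkb (9.48 against 7.62 to 8.70), with a list deviation of 0.56. Markers of visceral endoderm were low there, with a list deviation of -0.50. Their part in the erythroid values was not tested.

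Among heme genes, Alas2, the erythroid enzyme that starts heme synthesis, varied most. It averaged 10.14 ± 0.93 and read 8.63, 10.14, 9.14 and 10.01 on arrays 1 to 4 and 11.41, 10.38, 11.21 and 10.20 on arrays 9 to 12. Arrays 1 and 3 were low and arrays 9 and 11 high, and arrays 9 to 12 all lay above arrays 1 to 4. Fech, which inserts the iron, varied less (11.80 ± 0.51, from 11.10 on array 12 to 12.75 on array 9), and so did Cpox, an intermediate enzyme of the pathway (11.70 ± 0.21). The other Cpox probe set had an SD of 0.62, from 7.81 on array 1 to 9.51 on array 9. The iron importers showed the Alas2 order in part. Tfrc, the transferrin receptor, ranged from 10.50 on array 1 to 12.50 on array 9, and Slc25a37, the mitochondrial iron carrier mitoferrin, from 10.31 on array 3 to 12.60 on array 9. Ermap (10.17 ± 0.93) and Rhag (9.65 ± 0.74), which encode red cell surface proteins, had the largest spread of the membrane list, lowest on array 3 (8.84 and 8.48) and highest on array 9 (11.43 and 10.90).

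GATA1 binds the letters AGATAA, and the erythroid promoters were searched for them on both strands in the 300 bases from 250 before to 50 after the RefSeq start (GRCm38.p6). They occurred in 9 of the 50 genes of the globin, transcription factor, membrane and heme lists with a promoter entry (18.0%) and in 7.83% of the 9882 measured genes with one. The letters CCNCNCCC, a KLF1 motif, were found in 38 of the 50 (76.0%) and in 65.9% of all. In the visceral endoderm list 19 of the 25 genes with a promoter entry held them (76.0%), so the erythroid share was no higher than that of the endoderm list. Cpox, Alas2 and Tal1 are among the 9 and are shown, read 5′ to 3′ on the gene's strand with the AGATAA match of either strand in capitals. These genes need not be the brightest of the 9. Their windows are chr16:58669958-58670257 (plus strand), chrX:150547167-150547466 (plus strand) and chr4:115056176-115056475 (plus strand). A match describes the letters and is not evidence of binding.
Cpox: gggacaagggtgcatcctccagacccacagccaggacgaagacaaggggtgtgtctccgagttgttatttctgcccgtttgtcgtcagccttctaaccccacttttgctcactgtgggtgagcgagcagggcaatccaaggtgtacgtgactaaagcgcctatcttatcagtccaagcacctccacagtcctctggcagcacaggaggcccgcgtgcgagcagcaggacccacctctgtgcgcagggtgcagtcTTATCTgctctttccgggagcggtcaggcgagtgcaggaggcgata
Alas2: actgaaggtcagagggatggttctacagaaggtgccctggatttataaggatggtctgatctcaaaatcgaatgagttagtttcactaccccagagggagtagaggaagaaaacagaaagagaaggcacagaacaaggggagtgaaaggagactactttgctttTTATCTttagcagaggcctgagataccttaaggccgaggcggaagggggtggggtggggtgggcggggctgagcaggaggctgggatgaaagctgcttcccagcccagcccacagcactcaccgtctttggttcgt
Tal1: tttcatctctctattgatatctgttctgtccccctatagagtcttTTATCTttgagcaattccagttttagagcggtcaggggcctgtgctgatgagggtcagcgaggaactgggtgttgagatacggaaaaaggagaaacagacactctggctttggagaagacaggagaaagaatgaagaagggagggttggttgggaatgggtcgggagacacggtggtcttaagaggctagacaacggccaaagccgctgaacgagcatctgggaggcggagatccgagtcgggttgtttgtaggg

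All 3 genes were highest on array 9. Cpox exceeded the 11.44 to 11.95 of the other arrays there by a narrow margin, Alas2 read 11.41 against 8.63 to 11.21, and Tal1, a partner of GATA1, 9.93 against 8.49 to 9.59.

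To ask which genes followed the red cell marker across the 8 arrays, every gene was regressed on the Slc4a1 log2 level with limma, so that a slope of 1 means that a gene moved by as much as Slc4a1. Of 12392 genes, 2 passed a Benjamini-Hochberg adjusted p under 0.05 (0.0161%), 1 in each direction (0.00807% each). Mbnl1, an RNA splicing regulator, rose with Slc4a1 (slope 1.32, SE 0.143, limma adjusted p = 0.039). It read 10.92, 11.31, 11.98 and 10.94 on arrays 1 to 4 and 12.49, 11.83, 12.17 and 10.88 on arrays 9 to 12, high on the 4 arrays where the probe set used for Slc4a1 was high (3, 9, 10 and 11), array 3 being one on which its other set was not high. Irx1, a homeobox gene with a mean of 6.69 below the floor, fell with it (slope -1.15, SE 0.110, limma adjusted p = 0.028). On quantile-normalized values 3 genes passed (0.0242%), 2 upward (0.0161%) and 1 downward (0.00807%): Mbnl1 again (slope 1.42, limma adjusted p = 0.026), the heme enzyme gene Urod (1.26, limma adjusted p = 0.026) and Zfhx3, which fell. Irx1 did not pass there (adjusted p = 0.375). No gene passed after any one of the 8 arrays was left out, when the number run or the interquartile range entered as a covariate, or among genes above the floor only, in limma. At an unadjusted p under 0.05 those fits held between 516 and 1912 genes.

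Most erythroid genes had positive slopes on Slc4a1 without passing one by one, as did most genes of some other lists. Positive slopes were found in 13 of 15 heme genes (median 0.64), 19 of 23 membrane genes (0.48), 12 of 17 transcription factors (0.42) and 9 of 11 iron genes (0.43). They were also found in 22 of 22 mitosis (0.40), 20 of 22 DNA replication (0.49) and 17 of 19 heat shock and chaperone genes (0.36). Across all 12392 genes 6253 slopes were positive and the median was 0.00. On quantile-normalized values the heme, membrane, transcription factor and iron lists had 15 of 15 (0.49), 19 of 23 (0.64), 11 of 17 (0.51) and 8 of 11 (0.30). The mitosis, DNA replication and heat shock lists had 18 of 22 (0.24), 20 of 22 (0.31) and 10 of 19 (0.08). In the visceral endoderm list 3 of 32 were positive on the deposited values, with a median of -0.31, and on quantile-normalized values 0 of 32, with a median of -0.86. The list of mesenchyme and mesothelium had 12 of 24 positive slopes on the deposited values and 4 of 24 after quantile normalization. Tal1 had a slope of 1.04 (SE 0.199), which did not pass over all genes (limma adjusted p = 0.248).

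Single pairs of markers were related with wide uncertainty. Over 8 arrays, Slc4a1 and Gata1 correlated with Pearson r = 0.703 (exact permutation p = 0.0397, adjusted over 9 relations 0.242; Spearman rho = 0.524, exact permutation p = 0.197). The r fell to 0.408 without arrays 9 and 12, the 2 farthest from the Slc4a1 median. For Slc4a1 and Klf1 r was 0.656 (exact permutation p = 0.0808, adjusted 0.242; rho = 0.381, exact permutation p = 0.360) and 0.391 without these arrays. Slc4a1 and Apoa1, the endoderm marker, had r = -0.181 (exact permutation p = 0.659, adjusted 0.848; rho = -0.143, exact permutation p = 0.752). It became -0.773 on quantile-normalized values (exact permutation p = 0.0355, adjusted 0.160) and 0.105 with values centred within arrays 1 to 4 and 9 to 12. None of the 9 relations passed at an adjusted p under 0.05 on the deposited values, and the 4 arrays of a number run are too few for a correlation of their own. Single arrays decided the first 2 relations. Without array 3, r was 0.894 for Gata1 and 0.927 for Klf1, both passing (exact permutation, adjusted p = 0.0223 for each). Without array 9 it was 0.469 and 0.403. With the mean of all probe sets of a gene it was 0.896 and 0.842, again both passing (exact permutation, adjusted p = 0.0277 and 0.0388).

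**Figure D3:**
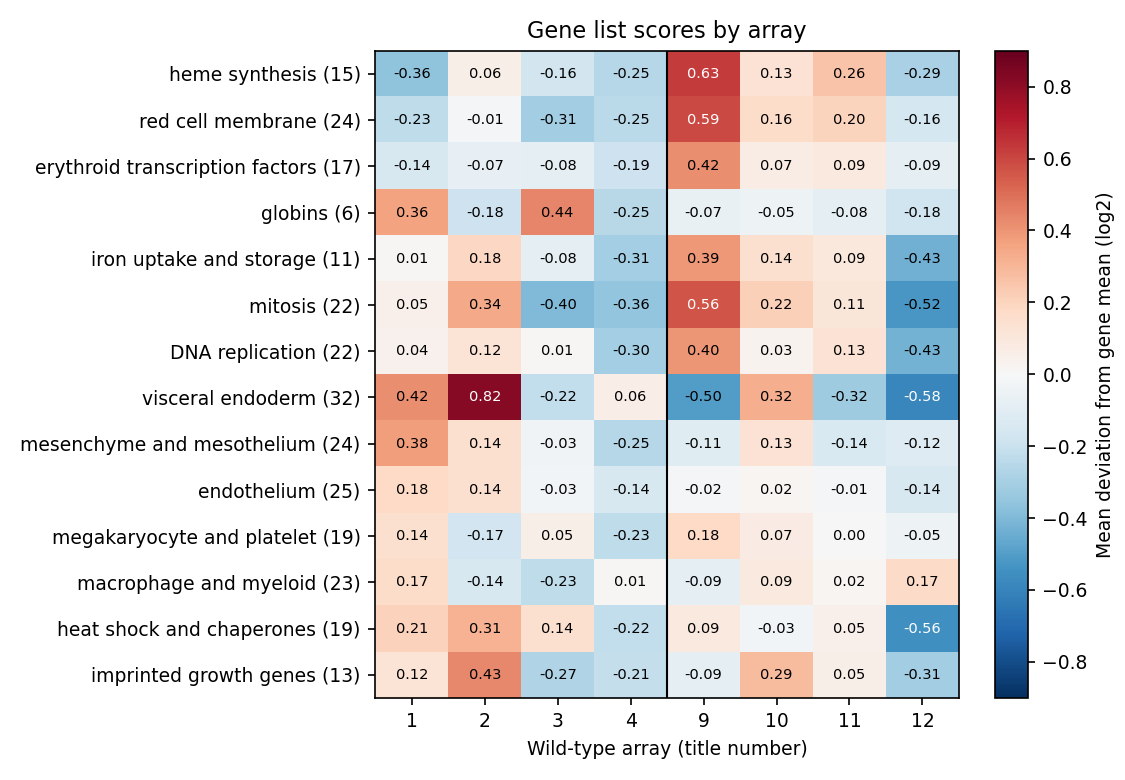
Mean deviation of gene lists from their gene means (log2) on each wild-type array, with the number of measured genes in parentheses and a vertical line between title numbers 1 to 4 and 9 to 12. Heme synthesis reaches 0.63 and the red cell membrane list 0.59 on array 9, where visceral endoderm is at -0.50; visceral endoderm is highest on array 2 (0.82) and lowest on array 12 (-0.58).

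The genes of visceral endoderm varied more between the arrays than any other of the 22 lists scored, with a list range of 1.40 from array 2 (0.82) to array 12 (-0.58). After quantile normalization the range was 1.15, again highest on array 2 but lowest on array 9. Array 2 held the highest value of 21 of 32 members and array 1 of another 9, against 2462 and 1860 of all 12393 genes. The median SD of the list was 0.60, against 0.25 for all genes. Apoa1, the main protein of high-density lipoprotein, averaged 11.46 ± 0.98 and read 12.54, 12.85, 11.38 and 11.72 on arrays 1 to 4 and 10.72, 11.85, 10.75 and 9.91 on arrays 9 to 12. Its 3 other probe sets had SDs of 0.90 to 0.94 and were also highest on array 2 and lowest on array 12. Apob, the core protein of larger lipoproteins, averaged 10.35 ± 1.31 and read 12.02, 11.44, 10.85, 10.90, 8.52, 11.05, 9.01 and 8.99 in that order, with arrays 9, 11 and 12 more than 1 log2 unit below the others. The brightest probe sets of Ttr and Afp, near the top of the scale, lay between 13.55 and 14.22 and between 13.26 and 13.97. Dimmer probe sets of both genes had an SD of 0.67, from 9.64 to 11.74 for Ttr and from 11.35 to 13.31 for Afp.

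Regression on Apoa1 called 87 of 12392 genes at a limma adjusted p under 0.05 (0.702%), all with positive slopes. Of the 31 measured members of the visceral endoderm list other than Apoa1, 11 were called, 30 had positive slopes and the median slope was 0.47, against 0.01 for all genes. Slc2a2, the glucose transporter GLUT2 of liver and endoderm, had the smallest p (slope 0.87, SE 0.076, limma adjusted p = 0.006). It read 11.33, 11.26, 10.17 and 10.16 on arrays 1 to 4 and 9.40, 10.64, 9.40 and 8.98 on arrays 9 to 12, the arrays falling in nearly the order they had for Apoa1. Also called here and on quantile-normalized values were Depdc7 (0.76), Aass (0.75), an enzyme of lysine breakdown, Cndp2 (0.65), a dipeptidase, Vil1 (0.60), the villin of absorptive microvilli, Slc9a3r1 (0.60), a scaffold of the same microvilli, Rhpn2 (0.54) and Ripk4 (0.72). Cndp2 read 12.44, 12.62, 11.87, 11.62, 11.24, 11.86, 11.04 and 10.73, and Vil1 8.61, 8.61, 7.75, 8.07, 7.13, 7.98, 7.38 and 7.09. Both were high on arrays 1 and 2 and low on arrays 9, 11 and 12.

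Lipoprotein and plasma protein genes made up most of the called list members. Apob had a slope of 1.20 (SE 0.195, limma adjusted p = 0.033), and Apom, Apoa2, Apoc2 and Apoa4, which encode further lipoprotein components, had slopes of 0.70, 0.71, 0.51 and 0.42. Mttp, which loads lipid onto apolipoprotein B, followed with 0.72, and the fibrinogen chain gene Fga with 0.58. The epithelial keratins Krt8 (0.53) and Krt18 (0.40) and Hnf4a, the nuclear receptor that governs many of these genes, were also called, as was Vil1. Hnf4a ran from 8.99 on array 12 through a median of 9.50 to 10.17 on array 2 (slope 0.45, SE 0.0805, limma adjusted p = 0.043). Outside the list, Fabp2, the intestinal fatty acid binding protein (0.84), the iron exporter gene Slc40a1 (0.46) and the imprinted growth inhibitor Cdkn1c (0.67) were called. The erythroid lists were split on the deposited values. Slopes were positive in 4 of 17 transcription factors (median -0.10), 7 of 24 membrane genes (-0.13) and 5 of 15 heme genes (-0.04), but in 7 of 11 iron genes (0.12) and 4 of 6 globins (0.03). Of all 12392 genes 6591 were positive. Slc40a1 was the one called gene among these 5 lists. After quantile normalization the lists had, in the same order, 3 of 17 (-0.19), 4 of 24 (-0.27), 2 of 15 (-0.18), 5 of 11 (-0.05) and 3 of 6 (0.01). Of all genes 5733 were positive there (-0.01).

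The number of genes called with Apoa1 depended on the scaling and on single arrays. It was 10 on quantile-normalized values (0.0807%), all among the 87. With the interquartile range of the array as a covariate it was 56, of which 42 were among the 87. With the number run as a covariate 1 gene was called, though all 87 kept a positive slope. Without array 2 the count was 0 in limma (1045 genes at an unadjusted p under 0.05), without array 1 it was 4, without arrays 10, 11 and 12 it was 31, 15 and 22, and without array 4 it was 178. Array 2 was the highest of the 8 in 71 of the 87 genes and array 12 the lowest in 64. All 87 had an unadjusted p under 0.05 on quantile-normalized values.

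**Figure D4:**
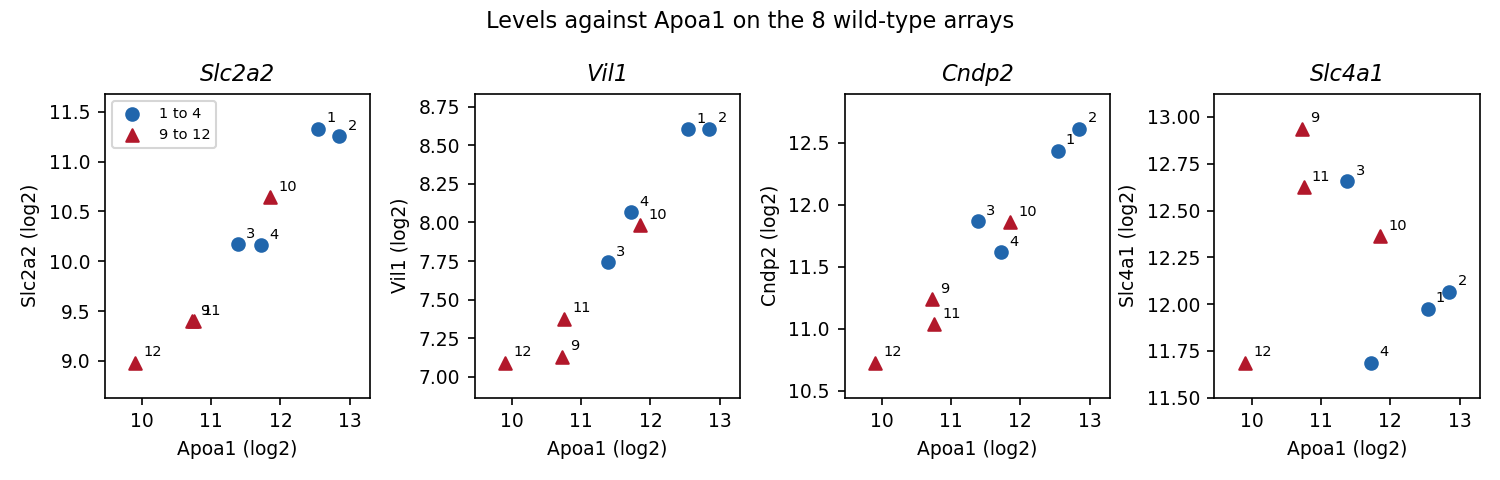
Levels of Slc2a2, Vil1, Cndp2 and Slc4a1 (log2, vertical axes) against Apoa1 (log2, horizontal axis), one point per wild-type array with its title number; circles are arrays 1 to 4 and triangles 9 to 12. Slc2a2, Vil1 and Cndp2 rise with Apoa1 from array 12 to arrays 1 and 2, while Slc4a1 shows no such order (r = -0.181).

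The letters CAAAGNNCA, an HNF4 motif, were searched for in the same promoter windows on both strands. They occurred in 14 of the 69 genes that followed Apoa1 and had a promoter entry (20.3%), in 1 of the 50 erythroid genes (2.0%) and in 5.38% of all 9882. The KLF1 letters CCNCNCCC were found in 53 of those 69 genes (76.8%). Apob, Apoa4 and Fga are the 3 called members of the endoderm list whose promoters hold the HNF4 letters, which are in capitals. Their windows are chr12:7977427-7977726 (plus strand), chr9:46240594-46240893 (plus strand) and chr3:83025903-83026202 (plus strand). The first base of the match lay at position -103, -182 and -78 from the start in Apob, Apoa4 and Fga.
Apob: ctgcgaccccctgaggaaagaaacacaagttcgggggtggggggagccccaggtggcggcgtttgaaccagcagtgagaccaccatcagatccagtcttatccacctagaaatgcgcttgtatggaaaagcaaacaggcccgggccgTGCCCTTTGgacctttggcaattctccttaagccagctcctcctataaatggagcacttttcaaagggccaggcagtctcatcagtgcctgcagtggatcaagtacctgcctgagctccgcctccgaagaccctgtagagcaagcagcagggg
Apoa4: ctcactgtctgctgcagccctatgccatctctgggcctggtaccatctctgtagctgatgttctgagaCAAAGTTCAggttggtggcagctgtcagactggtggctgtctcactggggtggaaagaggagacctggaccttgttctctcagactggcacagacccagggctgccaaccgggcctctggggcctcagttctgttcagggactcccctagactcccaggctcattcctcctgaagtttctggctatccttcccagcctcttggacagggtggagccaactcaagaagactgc
Fga: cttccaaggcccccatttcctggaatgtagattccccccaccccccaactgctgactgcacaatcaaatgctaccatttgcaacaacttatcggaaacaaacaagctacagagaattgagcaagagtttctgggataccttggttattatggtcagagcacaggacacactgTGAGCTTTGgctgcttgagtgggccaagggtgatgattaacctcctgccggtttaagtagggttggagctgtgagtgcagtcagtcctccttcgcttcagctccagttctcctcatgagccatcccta

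All 3 were high on arrays 1 and 2: Apoa4 read 12.07 and 12.66 there against 11.28 to 12.01 on the others, and Fga 8.96 and 9.41 against 7.66 to 8.96, with array 10 level with array 1. The search says only which letters stand in these windows.

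Regression on Lum, the mesenchymal marker, called 6 genes (0.0484%), all with positive slopes. Lum ran from 10.48 on array 3 through a median of 11.39 to 11.69 on array 2. Upk3b, a gene of mesothelium, rose by 1.79 (SE 0.166, limma adjusted p = 0.016) per unit of Lum, and Igf2, the imprinted growth factor, by 1.90 (SE 0.184, limma adjusted p = 0.016). Igf2 ran from 8.69 on array 3 through a median of 10.27 to 11.06 on array 2, so that it too was lowest on array 3. The others were Zwilch (1.41), a kinetochore protein, Gnas (1.71), another imprinted gene, Mia3 (1.33) and Arl1 (1.96), both of the secretory route. In the mesenchyme list 15 of 23 slopes were positive (median 0.17), and in the mitosis list all 22 were (0.65), against 6079 of all 12392 genes (-0.01). After quantile normalization these were 13 of 23 (0.04) and 14 of 22 (0.43). On quantile-normalized values 0 genes passed, with 1302 at an unadjusted p under 0.05 in limma. Without array 3 the count was 1713, without array 1 it was 309, without arrays 11 and 12 it was 1 and 3, and without array 2 or array 10 it was 0 (1749 and 2503 unadjusted). With the number run as a covariate it was 219.

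Regression on Pf4 gave 0 genes (0%) in limma; 1088 had an unadjusted p under 0.05, and the smallest adjusted p was 0.548. Pf4 read 11.47, 11.25, 11.32 and 10.43 on arrays 1 to 4 and 11.60, 11.45, 11.13 and 11.07 on arrays 9 to 12, lowest on array 4. Of the other megakaryocyte genes, 10 of 18 had positive slopes on the deposited values (median 0.05, against 0.02 for all genes). At an unadjusted limma p under 0.05, 7 of these 18 rose with Pf4, against 740 of all 12392 genes. After quantile normalization 14 of 18 slopes were positive (median 0.31), against 6733 of all genes (0.02). Slc4a1 and Pf4 correlated with r = 0.624 (exact permutation p = 0.0785, adjusted 0.242; rho = 0.619, exact permutation p = 0.115), and r was 0.530 without arrays 9 and 12.

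Arrays 9 to 12 were compared with arrays 1 to 4, since the labels do not say whether the 2 number runs are batches. In limma 0 of 12393 genes passed (0%); 931 had an unadjusted p under 0.05, with the smallest adjusted p at 0.549, and without array 4 the count was 2. In the lists, 19 of 24 membrane genes (median difference 0.37), 12 of 15 heme genes (0.27) and 13 of 17 transcription factors (0.16) had the higher mean on arrays 9 to 12. Of the iron genes 4 of 11 did (-0.03) and of the globins 1 of 6 (-0.10). In the visceral endoderm list 2 of 32 did (-0.44), and among all genes 5755 (-0.02). All p-values here measure the spread between these pools, which the design text calls biological replicates without saying whether any shared a litter.

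Of the 20 genes with the largest SD among those above the floor, Hbb-b2 was the one on an erythroid list. Over the 8 arrays 15 genes had an SD above 1 log2 unit, 9 of them with a mean above the floor, while the median gene had 0.25. The count of 15 became 23, 25, 27, 31 and 28 without arrays 2, 4, 9, 10 and 11. Among genes above the floor, Ptp4a2, a phosphatase, had the largest SD (1.41), with 9.72 and 9.50 on arrays 1 and 3 and 12.10 to 13.07 on the other 6. Its 3 other probe sets had SDs of 0.39, 0.52 and 0.23, so the probe sets disagree. Apoe was next (1.38) and read 7.34, 10.68, 6.51 and 9.30 on arrays 1 to 4 and 8.80, 9.94, 9.32 and 8.06 on arrays 9 to 12, lowest on arrays 1 and 3. This differed from Apoa1 and Apob, which were high on array 1. Dnmt1, the maintenance DNA methyltransferase (SD 1.13), ran the other way from Ptp4a2, with 11.53 and 11.62 on arrays 1 and 3 against 8.83 to 10.70.

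Arrays 1 and 3 stood at one end for most of these genes. In 9 of the 20 most variable genes above the floor both arrays lay above the other 6, among them Myh9 (nonmuscle myosin, 12.15 and 11.77 against 9.22 to 10.40), Pdgfrb, Malat1, Hspa1b and Hbb-b2. In 6 of the 20 both lay below, among them Ptp4a2, Apoe and Atp5b. Among all genes the shares were 9.38% and 5.91%. Several of these genes have another probe set that varied much less, as Myh9 (SD 1.12, others 0.75, 0.35 and 0.18), Pdgfrb (1.05, other 0.32), Rgcc (0.99, other 0.16) and Ewsr1 (0.96, others 0.17 and 0.13). Other probe sets also gave another order of arrays. Both other Hspa1b sets were highest on array 2 (9.61 and 8.11, against 8.82 and 7.07 on array 3). One other Malat1 set was lowest on array 3 (7.56) and highest on array 11 (9.44). The second principal component of the arrays, 27.1% of the variance, had arrays 1 (27.5) and 3 (30.5) at one end and scores of -21.1 to -1.75 on the others, and the first, 42.3%, ran from array 12 (-41.1) to array 2 (34.6). The Actb 3′ minus 5′ difference was 5.52 on array 1 and 4.97 on array 3 against 3.74 to 4.55 on the others, and its part in these values was not tested.

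A Y-linked gene varied most of all. Eif2s3y, a Y-linked translation factor gene with a mean of 7.33, had the largest SD of all 12393 genes (2.09) and read 6.86, 4.27, 8.82 and 8.68 on arrays 1 to 4 and 9.26, 8.71, 4.03 and 8.02 on arrays 9 to 12. Kdm5d, another Y-linked gene, read 5.12, 4.58, 5.84, 6.66, 6.35, 6.18, 4.64 and 5.84. Xist, the RNA of the inactive X chromosome, averaged 9.76 ± 0.88 and read 10.47, 10.75, 10.39 and 9.04 on arrays 1 to 4 and 8.55, 8.76, 10.52 and 9.60 on arrays 9 to 12. Arrays 2 and 11 had the lowest Eif2s3y and Kdm5d and the highest Xist, while arrays 3, 4, 9, 10 and 12 had both Xist and Eif2s3y above the floor. Another Xist probe set (8.15 ± 2.05) was also high on arrays 2 and 11 (10.22 and 10.23) but lay below the floor on arrays 4 (4.30) and 10 (6.64), so Xist there depends on the probe set. The labels give no sex for the pooled embryos.

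**Figure D5:**
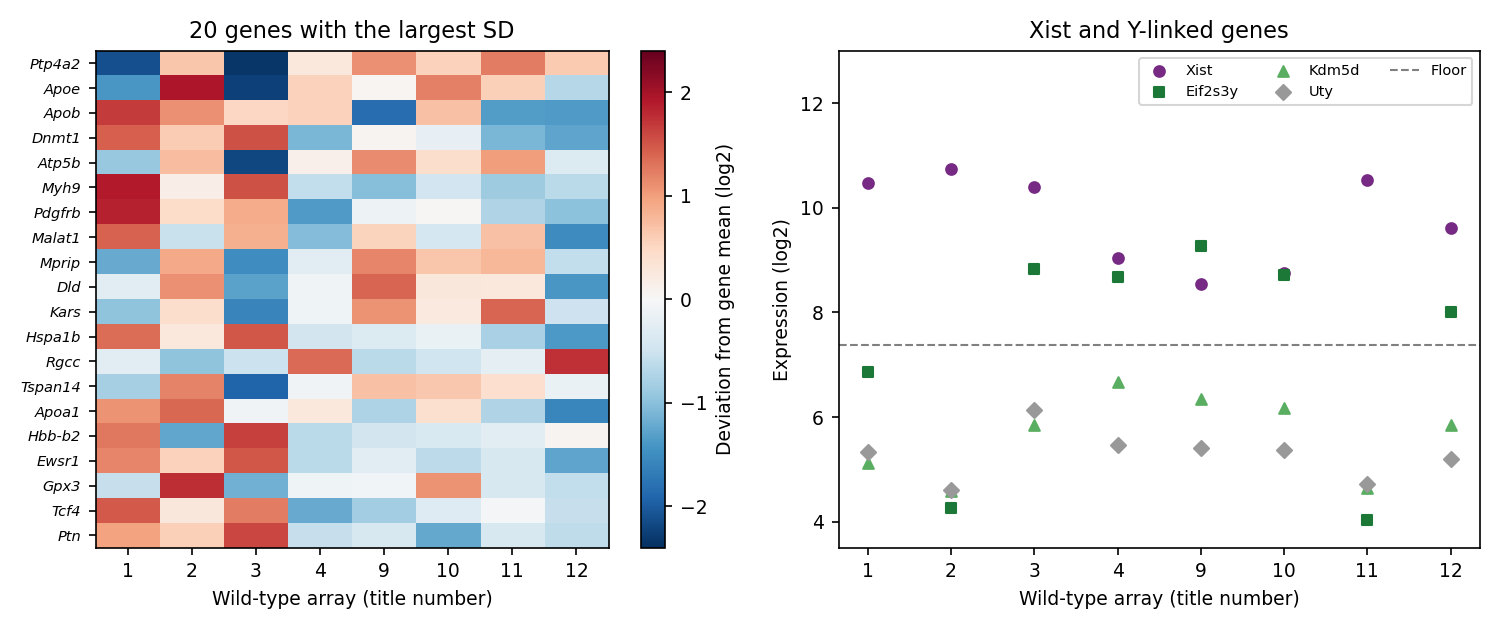
Left, deviation from the gene mean (log2, colour) of the 20 genes with the largest SD among genes above the floor, on each wild-type array; right, log2 levels of Xist and of the Y-linked Eif2s3y, Kdm5d and Uty on the same arrays, with the floor dashed. Ptp4a2 is far below its mean on arrays 1 and 3 and Myh9 far above; Eif2s3y is at 4.27 and 4.03 on arrays 2 and 11, where Xist is highest.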

How the data were processed

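Messenger RNA of laser-captured yolk sac material was measured on Affymetrix mouse expression arrays, 1 per sample. Deposited values are log2 levels of probe sets. GCOS, RMA and the packages affy and limma are listed, unversioned, in the submitters' processing notes. RMA corrects background, normalizes and summarises probes on the log2 scale. The authors' log2 values were used as they are. The number of arrays limits the precision.

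Of 22690 probe sets 64 were controls, 20380 were assigned to 1 gene by the platform annotation, 691 to more than 1 and 1555 to no gene. Identifiers of 20351 were found in the RefSeq gene table (GRCm38.p6), which changed 0 symbols. A gene took the probe set with the highest mean over the 8 wild-type arrays (4956 of the 12393 genes had more than 1). Groups came from the labels' genotype. Each gene was regressed on Slc4a1, Apoa1, Lum or Pf4 (lmFit, eBayes; limma 3.58.1, R 4.3.3; two-sided tests, Benjamini-Hochberg adjustment over all genes, threshold 0.05). The regression was tested on simulated data for Slc4a1 over 12392 genes, with independent noise for each gene. It called 44% and 48% of 50 genes each with slopes of 1 and -1, 90% of those with 2 and 90% of those with -2, with 4 false calls. Genes on the real arrays share variation that the simulation lacked, so it cannot give the rate of false calls in these data. Marker correlations had exact two-sided permutation tests over 40320 pairings. Tables and figures used Python 3.11.15, pandas 2.3.3, numpy 2.4.6, scipy 1.17.1 and matplotlib 3.10.9.

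The 22 gene lists (436 members, 384 measured), the families, the anchors and the tests were chosen with earlier results of these data known. Genes were named by rule: the markers and anchors; the 20 highest means; the 20 largest SDs among genes with a mean above the floor; up to 8 called genes per direction and anchor that were called on quantile-normalized values too; and of each list the 4 highest means and 2 largest SDs. Called list members, all 6 genes called with Lum, Irx1, Urod, Zfhx3, Krt8, Alb, Vwf, Itgb3, Cdh5, Pecam1, C1qa, Cd68, Kit, Bcl11a, Aurkb, Fabp2, Slc40a1, Cdkn1c and Kdm5d were chosen after their values were seen. Hba-a1, Nfe2, Grb10, Meg3 and, in the figures, Uty and Kdr were chosen in that way too. RefSeq promoters (GRCm38.p6) matched 9882 genes by gene identifier; Slc4a1, Hbb-bh1 and Lum have no sequence here. Alternatives were quantile normalization, the interquartile range or the number run as a covariate, the mean of probe sets, a filter at the floor and leaving out each array.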

Additional observations from a re-analysis of the deposited data

Results flagged for a closer look

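Among 217 sets of 8 values screened (named genes and list scores), 10 had one array so far from the nearest other that the gap, divided by the range, exceeded Dixon's 95% critical value for 8 values. For independent normal values chance gives about 1 such set in 20, and the 10 do not exceed that rate. Some screened genes were chosen for a large SD or after their values were seen, so the rate is a rough guide. Array 4 was the lowest for Pf4 (10.43) and for Vwf (4.81, below the floor). Array 3 was the highest for Hba-a2 (7.21) and the lowest for Lcp1 (6.51), a leukocyte actin-bundling protein. Array 12 was the lowest for the spindle checkpoint gene Mad2l1 (10.61) and the highest for the orphan receptor gene Nr4a1 (8.61). Array 9 was the highest for Nfe2 (7.60), an erythroid transcription factor, and for the score of the erythroid transcription factor list (0.42), and the lowest for Hba-a1 (4.47). Array 2 was the highest for Cd68 (5.90), below the floor.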

How the results depend on the processing

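Counts of called genes moved with the scaling and with single arrays, and the cause was not tested. For Slc4a1 the 2 genes became 0 with the interquartile range or number run as a covariate or above the floor only, 5 with the mean of probe sets, and 0 without any 1 array. For Apoa1 the 87 genes became 10 on quantile-normalized values, 56 with the interquartile range, 1 with the number run and 0 to 178 without 1 array. For Lum the 6 became 0 on quantile-normalized values and with the interquartile range, 1 with the mean of probe sets, 219 with the number run and 0 to 1713 without 1 array. For Pf4 the 0 became 1 with the number run. The comparison of arrays 9 to 12 with 1 to 4 gave 0 to 2 without 1 array, and the marker correlations 2 passing relations with the mean of probe sets and 0 to 2 without 1 array. Genes above the floor fell from 4088 to 2003 with the floor at the 99th percentile. The 15 genes with an SD over 1 became 9 above the floor only and 12 to 31 without 1 array. Of the other results, 893 values stayed the same, 735 were weaker, 7 stronger, 101 moved and 0 reversed. They cover the marker correlations, the called genes and the mean levels of named genes. A mean level has no call and counted as the same if it shifted by less than the SD of its gene. No paired analysis was possible because all the arrays belong to 1 group and share no replicate numbers. The 8 arrays, each a pool, bound what these fits can detect.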

Other observations

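Imprinted growth genes were bright in the wild-type material: 10 of 13 exceeded the floor on all 8 arrays, with a median level of 10.24. Plagl1, a growth-arrest zinc finger gene, averaged 12.13 ± 0.46, Peg3 11.95 ± 0.46 and Ndn 11.13 ± 0.20. Grb10, an inhibitor of insulin-like growth factor signalling, was highest on array 9 (11.61) and lowest on array 3 (9.49), while Meg3, a maternally expressed noncoding RNA, was lowest on array 9 (8.95) and highest on array 1 (11.05).

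Glycolysis and stress genes were bright too. Bpgm, which makes the red cell's 2,3-bisphosphoglycerate, averaged 11.14 ± 0.68 and was highest on array 9, and Slc2a1 and Slc2a3, the glucose transporters GLUT1 and GLUT3, averaged 12.59 ± 0.43 and 12.47 ± 0.36. Of the heat shock and chaperone list 18 of 19 genes exceeded the floor, and array 12 was the lowest in 12 of the 19 (63.2%), against 22.8% of all genes. The range of that list's deviation over arrays was 0.87 on the deposited and 0.22 on quantile-normalized values. Hspa1a and Hspa1b, near-identical inducible genes that the probes may not separate, were highest on array 3 (8.90 and 10.74) and lowest on array 12 (5.92 and 7.88). The other Hspa1b probe sets were also lowest on array 12 but highest on array 2.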
